A study of Mus musculus with 18 samples.

Results

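The 10 libraries described here, of 18 in the series, follow a pooled CRISPR knockout library through 16 h in the peritoneal cavity of mice that received no antibody. They were chosen by label and arm alone: the 8 libraries recovered from the 4 PBS-treated (vehicle) mice and the 2 baseline libraries of the same cells. The other 8 libraries came from mice given anti-hHer2 IgA and enter only where named. The cells were sensBa/F3, a line derived from the mouse pro-B line Ba/F3, which grows on interleukin-3. The ITPK1-WT background was the line itself. The ITPK1-KO background was a pool of 6 clones with deletions in ITPK1. Both had been transduced with the same sgRNA library and cultured for 10 days, and this culture is the baseline. They were stained with CellTrace violet (ITPK1-WT) or CellTrace yellow (ITPK1-KO) and mixed 1:1, and 20000000 cells were injected intraperitoneally into each hCD89-transgenic mouse. Viable tumour cells from the lavage were sorted by dye, 2000000 per vehicle library, so each vehicle mouse gave a library of each background. Ages of the mice were not given in the sources used here. Dye and genotype cannot be told apart. Each background was a single transduced pool shared by all mice, so the spread over mice does not include a second transduction.

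Each sgRNA directs Cas9 to cut its target gene, and reads over the sgRNA count the surviving cells that carry it. An sgRNA that becomes scarcer than the non-targeting sgRNAs marks cells that divided less, died more or were recovered less often, and these cannot be told apart from a read count. Acsl4 loads polyunsaturated fatty acids onto coenzyme A for membrane phospholipids and is a driver of ferroptosis, an iron-dependent death by lipid peroxidation. Daxx is a chaperone of the histone variant H3.3 and an adaptor in apoptosis signalling. Ipmk and Itpk1 are kinases of soluble inositol phosphates in the route to the highly phosphorylated forms. These forms have been linked to necroptosis and its pore-forming protein Mlkl, a link that was not tested here.

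The library held 252 sgRNAs, 3 for each of 76 genes and 24 non-targeting controls. The protospacers on which the results turn are printed 5′ to 3′, with the 10 bases next to the PAM in capitals, because each gene's result rests on whether its 3 independent cut sites moved together.
Acsl4 sg-1: gtccagggatACGTTCACAC
Acsl4 sg-2: gcccatatccCTGACCAATG
Acsl4 sg-3: caatagagcaGAGTACCCTG
Daxx sg-1: tcagcacatcTCCATAATCG
Daxx sg-2: ggagacatcaGACCACCCTG
Daxx sg-3: gcgggcctccTGCAAATACG
Ipmk sg-1: caaacgatagAACTTTGGCG
Ipmk sg-2: agacgccgtaGTATTTGGGC
Ipmk sg-3: ctctaccttcTGAATACTGG
Itpk1 sg-1: gttcgaacggCCAAGCGATG
Itpk1 sg-2: cgaacttatcCGAAAGATCG
Itpk1 sg-3: ggtgggcgagTCCTACACAG
CASP6 sg-2: gccagagttaCCTGCGAGTC

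Most knockouts kept their share over the 16 h. The change of an sgRNA is the log2 ratio of its share in a recovered library to its share in the baseline of that background, minus the median such ratio over the 24 non-targeting sgRNAs. In ITPK1-WT cells 189 of 252 sgRNAs (75.0%) stayed within 0.1 of 0 in the mean over the 4 mice, 11 lay below -0.2 and 2 above 0.2. In ITPK1-KO cells 210 (83.3%) stayed within 0.1, and again 11 lay below -0.2 and 2 above 0.2. Non-targeting sgRNAs spanned -0.11 to 0.096 in ITPK1-WT cells and -0.085 to 0.11 in ITPK1-KO cells. The Gini index, a measure of unevenness that is 0 when all sgRNAs have equal reads, was 0.240 in the ITPK1-WT baseline and 0.242 ± 0.00128 (SD, n = 4 mice) after recovery. It was 0.239 in the ITPK1-KO baseline and 0.246 ± 0.00191 after recovery, and all 8 vehicle libraries lay above their baseline.

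The 10 libraries held 317564 to 704992 reads, with a median of 1325.5 to 2905 reads per sgRNA. For the median sgRNA, counting error in the baseline library alone was 0.030 (log2) in ITPK1-WT cells, and it was 0.031 for those with ITPK1-KO. The SD over mice was 0.045 and 0.053 for these backgrounds. Each background had 1 baseline library, so its error is common to all 4 mice and does not show in their spread. The test (edgeR quasi-likelihood on reads, all 10 libraries together) let the lone baseline vary like the mice. It shared the spread across all sgRNAs or genes, so a p-value does not rest on the spread of a single gene over its mice. The sample numbers in the names of the read files repeat, from which 2 sequencing sample sheets were inferred, with mice 1 to 5 on the first and mice 6 to 8 and the baselines on the other. The labels do not name such sheets. If the inference holds, every vehicle library was compared with a baseline from the other sheet. Adjusted p-values with the inferred sheet as a covariate are therefore given beside the called genes. That fit took in all 18 libraries, so it differs from the main test by the IgA libraries as well as by the sheet.

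In ITPK1-WT cells 3 knockouts of 76 fell (3.95% of genes tested): Acsl4, Daxx and Ipmk. Acsl4 and Daxx also fell in ITPK1-KO cells (2.63%), and no gene rose in either background (0.0%), at an adjusted p under 0.05 in edgeR. At an unadjusted p under 0.05 there were 9 genes in ITPK1-WT and 7 among ITPK1-KO cells. Among single sgRNAs, 7 of 252 passed in ITPK1-WT cells (2.78%), 6 lower (2.38%) and 1 higher, and 3 in ITPK1-KO cells (1.19%), all lower. With TMM, DESeq2 size factors or total counts as the library scaling, the 6 lower sgRNAs of ITPK1-WT cells remained and none was higher. None of the 24 non-targeting sgRNAs passed, although 4 in ITPK1-WT and 1 among ITPK1-KO cells had an unadjusted p under 0.05, beside 48 and 22 of all 252 sgRNAs. In the ITPK1-WT list were all 3 sgRNAs of Acsl4, Daxx sg-2, Ipmk sg-3, Itpk1 sg-1 and CASP6 sg-2, and in the ITPK1-KO list Acsl4 sg-1, Daxx sg-1 and Daxx sg-2.

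**Figure D1:**
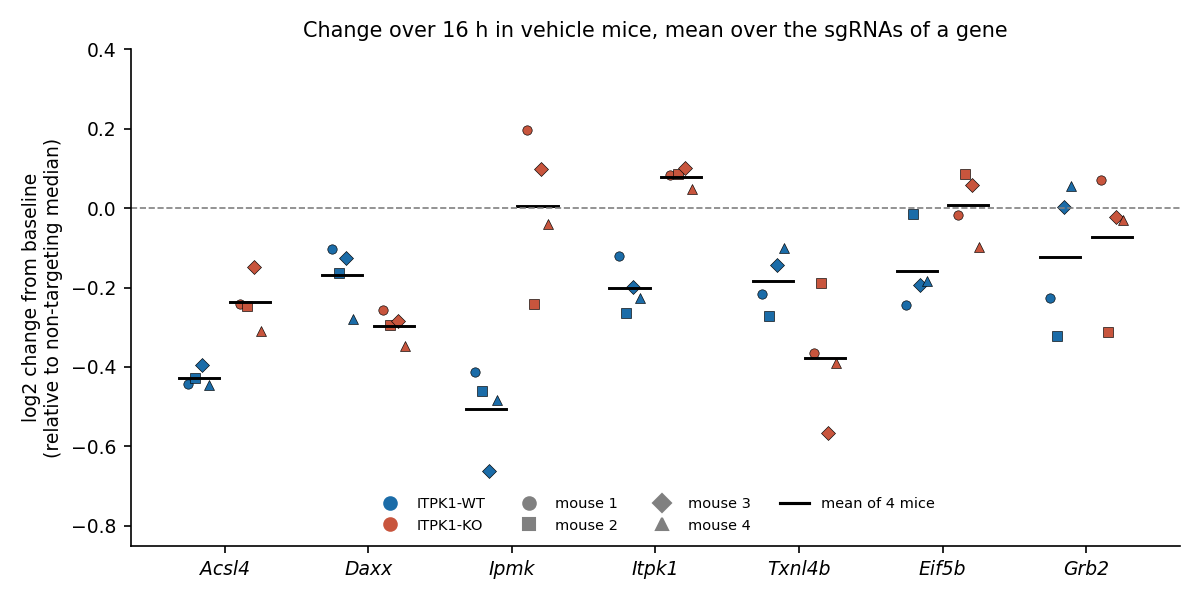
Change from baseline (log2, with the non-targeting median at 0) of Acsl4, Daxx, Ipmk, Itpk1, Txnl4b, Eif5b and Grb2 in each vehicle mouse, by background. Each point is the mean over the sgRNAs of a gene, and black lines are means over mice. Every Acsl4 and Daxx point lies below 0 in both backgrounds. Every Ipmk and Itpk1 point lies below 0 in ITPK1-WT cells. In ITPK1-KO cells Ipmk points lie on both sides of 0 and Itpk1 points above it.

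Acsl4 had the lowest adjusted p of the genes in ITPK1-WT cells. In ITPK1-WT cells the mean change of its 3 sgRNAs was -0.44 in mouse 1, -0.43 in mouse 2, -0.39 in mouse 3 and -0.45 in mouse 4. The mean was -0.43 ± 0.024 (SD, n = 4 mice), so its sgRNAs stood at 0.744 times their baseline share. All 4 mice were low and close together. On summed reads edgeR gave -0.43, adjusted p = 7.11e-09, and 0.00801 with the inferred sheet as a covariate. Before injection Acsl4 sgRNAs were already at 28.6% of 3 times the mean reads of a non-targeting sgRNA (a non-targeting trio), and they went on to 21.3% ± 0.415 after recovery.

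The 3 Acsl4 sgRNAs of ITPK1-WT cells moved together. Acsl4 sg-2 had 933 reads at baseline and changed by -0.52, -0.62, -0.59 and -0.54 in mice 1 to 4, mean -0.57 ± 0.047 (edgeR adjusted p = 5.15e-07). Acsl4 sg-1, from 930 reads, changed by -0.35, -0.35, -0.44 and -0.38, mean -0.38 ± 0.042 (edgeR adjusted p = 0.00436). Acsl4 sg-3, from 873 reads, was less even, with -0.46, -0.32, -0.15 and -0.42 and a mean of -0.34 ± 0.14 (edgeR adjusted p = 0.0180). Mouse 3 was its smallest loss, and the call on this sgRNA was lost without mouse 1 (adjusted p = 0.0841) or mouse 4 (adjusted p = 0.154), within a range of 0.00784 to 0.295 over 15 alternatives.

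In ITPK1-KO cells the loss of Acsl4 was smaller in each mouse. Its changes were -0.24, -0.25, -0.15 and -0.31 in mice 1 to 4, mean -0.24 ± 0.067, or 0.849 times baseline (edgeR -0.25, adjusted p = 0.00652). This call was lost with the inferred sheet as a covariate (adjusted p = 0.748, range over 16 alternatives 0.00343 to 0.748). The level went from 28.9% of a non-targeting trio to 24.4% ± 1.05, so both backgrounds had started from a similar level. Acsl4 sg-1 changed by -0.33 ± 0.082 (edgeR adjusted p = 0.0166), sg-2 by -0.27 ± 0.13 (adjusted p = 0.163) and sg-3 by -0.11 ± 0.069 (adjusted p = 0.915). All 12 values, 3 sgRNAs in 4 mice, were below 0. Within mice the ITPK1-KO change lay above the ITPK1-WT change by 0.20, 0.18, 0.25 and 0.14, mean 0.19 ± 0.046, and the test of this difference missed the threshold (edgeR 0.18, adjusted p = 0.293). Alox12 and Alox15, lipoxygenases also linked to lipid peroxidation, stood at 0.0060 ± 0.010 and 0.055 ± 0.013 in ITPK1-WT cells and at 0.020 ± 0.029 and 0.015 ± 0.030 in ITPK1-KO cells, and neither passed the test.

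Daxx fell in both backgrounds. In ITPK1-KO cells its changes were -0.26, -0.30, -0.29 and -0.35 in mice 1 to 4, mean -0.30 ± 0.037, or 0.815 times baseline (edgeR -0.30, adjusted p = 3.69e-06). With the inferred sheet as a covariate the call was lost (adjusted p = 0.0675, the highest of 16 alternatives). Daxx sg-1 changed by -0.35 ± 0.060 (edgeR adjusted p = 0.00206), sg-2 by -0.33 ± 0.071 (adjusted p = 0.0166) and sg-3 by -0.21 ± 0.086 (adjusted p = 0.375). In ITPK1-WT cells the changes were -0.10, -0.16, -0.13 and -0.28, mean -0.17 ± 0.078, or 0.890 times baseline (edgeR -0.16, adjusted p = 0.0175). Mouse 4 had the largest loss there, and without it the adjusted p was 0.0624. The ITPK1-WT call on Daxx was lost in 7 of 16 alternatives, with adjusted p from 0.00116 to 0.384, the highest with the inferred sheet as a covariate. The 4 ITPK1-WT values overlapped the ITPK1-KO values only through mouse 4.

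The 2 backgrounds started from different Daxx levels. At baseline its sgRNAs were at 67.5% of a non-targeting trio among ITPK1-WT and at 32.7% among ITPK1-KO cells, and after recovery at 60.4% ± 2.59 and 26.5% ± 0.728. Within mice the ITPK1-KO change was lower by -0.15, -0.13, -0.16 and -0.068, mean -0.13 ± 0.042. The test of this difference missed the threshold (edgeR -0.14, adjusted p = 0.293).

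Of the 2 inositol phosphate kinases in the library, Ipmk passed the test in ITPK1-WT cells, Itpk1 did not, and neither passed in ITPK1-KO cells. For Ipmk in ITPK1-WT cells the changes were -0.41, -0.46, -0.66 and -0.48 in mice 1 to 4, mean -0.50 ± 0.11, below 0 for every sgRNA in every mouse. On summed reads, where the common sgRNAs weigh most, edgeR gave -0.29, adjusted p = 0.0106, and the call was lost without mouse 3 (adjusted p = 0.0728) or mouse 4 (adjusted p = 0.0513), within a range of 0.00116 to 0.370 over 16 alternatives, the highest with the inferred sheet as a covariate. Ipmk sg-3, from 1008 reads, changed by -0.27, -0.43, -0.45 and -0.33, mean -0.37 ± 0.086 (edgeR adjusted p = 0.0171), and sg-1 by -0.20 ± 0.10 (adjusted p = 0.222). Ipmk sg-2 had 60 reads at baseline and 38, 32, 20 and 36 after recovery (-0.95 ± 0.24, adjusted p = 0.222).

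In ITPK1-KO cells Ipmk sgRNAs were almost gone before injection, at 2.81% of a non-targeting trio against 23.0% in ITPK1-WT cells. Ipmk sg-2 had 0 reads in that baseline, which allows a share of up to 0.000581%, and 0, 3, 0 and 4 reads in mice 1 to 4, so no fold is given. The remaining sg-1 and sg-3, with 200 and 44 baseline reads, averaged 0.20, -0.24, 0.099 and -0.039 over mice 1 to 4. Their signs were mixed, with a mean of 0.0041 ± 0.19. At this depth the spread was too wide to show a loss of the size of Ipmk sg-1 in ITPK1-WT cells. That was the smallest loss among the Ipmk sgRNAs there, and whether a larger one, as of sg-3, would have shown was not tested. The difference between backgrounds was 0.30 in edgeR, adjusted p = 0.342.

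For Itpk1 the 2 backgrounds stood on opposite sides of 0 in each mouse. In ITPK1-WT cells, where these sgRNAs hit an intact gene, the changes were -0.12, -0.26, -0.20 and -0.23 in mice 1 to 4, mean -0.20 ± 0.061 (edgeR -0.14, adjusted p = 0.181). In ITPK1-KO cells they were 0.083, 0.085, 0.10 and 0.049, mean 0.079 ± 0.022 (edgeR 0.093, adjusted p = 0.439). The within-mouse differences were 0.20, 0.35, 0.30 and 0.27, mean 0.28 ± 0.061. The gene's difference was 0.23 in edgeR, adjusted p = 0.127 (0.0% of genes were called in this comparison), and adjusted p = 0.0122 with the mouse as a block. Libraries from a mouse share that animal, but their deviations from the group means correlated little (0.0077 to 0.10). Itpk1 sgRNAs stood at 24.3% of a non-targeting trio in the ITPK1-WT and at 68.9% in the ITPK1-KO baseline.

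Itpk1 sg-1 was the single sgRNA of 252 (0.397%) whose change differed between backgrounds. It changed by -0.24, -0.22, -0.29 and -0.36 in ITPK1-WT cells, from 710 reads (mean -0.28 ± 0.063, edgeR adjusted p = 0.0410). In ITPK1-KO cells it changed by 0.059, 0.17, 0.23 and 0.046, from 2735 reads (mean 0.13 ± 0.088). The difference was 0.40 (edgeR adjusted p = 0.0450, and 0.0181 with the mouse as a block), and it missed the threshold without any mouse (0.0516 to 0.194). The ITPK1-WT call was lost without mouse 1, 3 or 4. Itpk1 sg-3 changed by -0.30 ± 0.13 in ITPK1-WT and -0.018 ± 0.052 among ITPK1-KO cells, and sg-2 by -0.027 ± 0.056 and 0.13 ± 0.032, so the 3 sgRNAs differed in size.

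**Figure D2:**
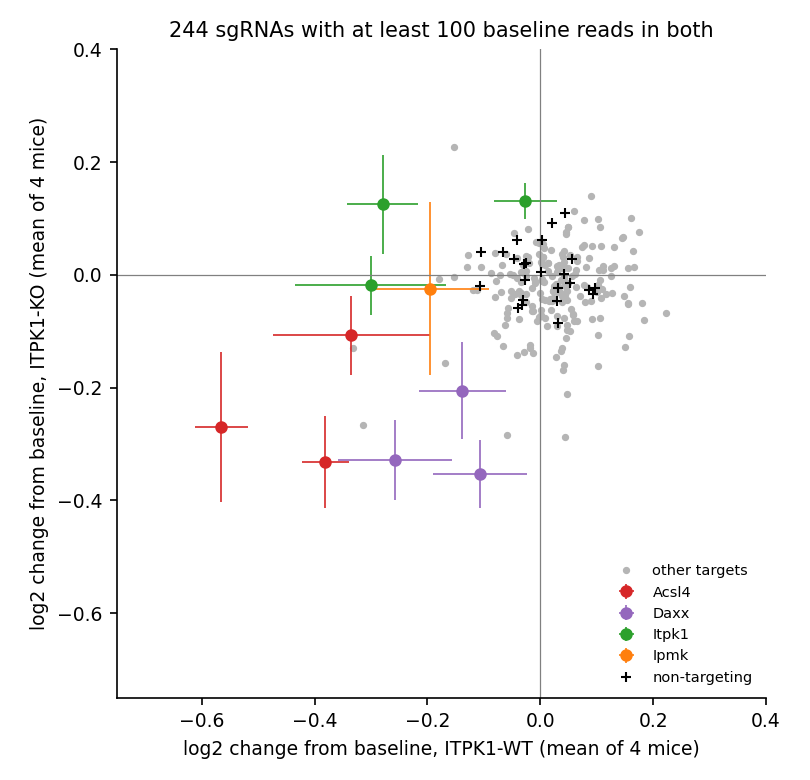
Mean change over 4 vehicle mice in ITPK1-KO cells against that in ITPK1-WT cells, for the 244 sgRNAs with at least 100 baseline reads in both (log2, bars SD over mice). Most sgRNAs sit around 0, and the sgRNAs of Acsl4 and Daxx lie to the lower left.

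Across those 244 sgRNAs the changes of the 2 backgrounds correlated with Pearson r = 0.30 and Spearman rho = 0.11. This describes sgRNAs that share mice and libraries. Without Acsl4 and Daxx the values were r = 0.083 and rho = 0.048 over 238 sgRNAs. Acsl4 and Daxx were the genes called lower in both backgrounds from these same values. Leaving them out was bound to lower r, so the drop is a description only. Genes as a whole lay slightly above the non-targeting median in ITPK1-WT cells (53 of 76 above, median 0.029) and slightly below it in ITPK1-KO cells (51 of 76 below, median -0.022).

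The list of targets named for growth held Grb2, an adaptor that links receptors to Ras, Txnl4b, a factor of pre-mRNA splicing, Eif5b, which joins ribosomal subunits at translation start, and Daxx. It was drawn up with earlier results of these data known, and 1 of its 4 genes, Daxx, passed in each background, beside 3.95% and 2.63% of all genes. Txnl4b changed by -0.22, -0.27, -0.14 and -0.10 in ITPK1-WT cells (mean -0.18 ± 0.075, edgeR adjusted p = 0.311), from 5.11% of a non-targeting trio. In ITPK1-KO cells it changed by -0.36, -0.19, -0.57 and -0.39 (mean -0.38 ± 0.15, adjusted p = 0.446), from 2.21%. All 8 values of Txnl4b were negative, and neither background passed the test.

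Neither Eif5b nor Grb2 passed the test. Eif5b stood at -0.16 ± 0.10 in ITPK1-WT cells (edgeR adjusted p = 0.775) and 0.0072 ± 0.082 in ITPK1-KO cells (adjusted p = 0.971), from 9.17% and 11.3% of a non-targeting trio. Grb2 stood at -0.12 ± 0.18 (adjusted p = 0.872) and -0.074 ± 0.17 (adjusted p = 0.725), from 5.78% and 3.61%. The mice scattered on both sides of 0 for Grb2 in both backgrounds.

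The TNF receptor complex and death receptors had values close to those of all genes. None of the 9 passed in either background, and with 3.95% and 2.63% of all genes called, a count of 0 in a list of this size, or in the lists that follow, says nothing particular about its members. Their median change was 0.029 in ITPK1-WT and -0.045 among ITPK1-KO cells, beside 0.029 and -0.022 over all 76 genes. Fas, a death receptor, stood at 0.056 and 0.052, and Tnfrsf1a, the main TNF receptor, at 0.029 and 0.041. Fadd, the adaptor that recruits Casp8, stood at 0.066 and -0.050, and Casp8, the initiator caspase, at 0.017 and -0.022. Spata2, which brings the deubiquitinase Cyld to the receptor complex, stood at 0.0027 ± 0.054 and -0.067 ± 0.047.

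Of the 5 necroptosis genes none passed in either background, beside 3.95% and 2.63% of all genes. Ripk1, the kinase at the branch between survival and death, stood at 0.060 ± 0.012 in ITPK1-WT and -0.032 ± 0.041 among ITPK1-KO cells. Its partner Ripk3 stood at 0.056 ± 0.046 and -0.018 ± 0.040, and Mlkl at 0.037 ± 0.021 and 0.0055 ± 0.039. Zbp1, a nucleic acid sensor that engages Ripk3, stood at 0.081, 0.075, 0.098 and 0.096 in mice 1 to 4 of ITPK1-WT cells, mean 0.087 ± 0.011 (edgeR adjusted p = 0.137). In ITPK1-KO cells Zbp1 was at -0.0041 ± 0.026. Pgam5, a mitochondrial phosphatase, stood at 0.037 ± 0.020 and -0.077 ± 0.011.

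Of 15 genes of mitochondrial apoptosis and the caspases, 0 passed, beside the same 3.95% and 2.63% of all genes, with medians of 0.036 and -0.0042. The pore-forming Bax and Bak1 stood at 0.042 and 0.029 in ITPK1-WT and at -0.060 and -0.045 in ITPK1-KO cells. The BH3-only proteins Bbc3 and Bid stood at 0.030 and 0.067, then 0.038 and 0.022. Casp9, the initiator caspase activated on APAF1, was at -0.036 and -0.057. CASP6 sg-2, against an executioner caspase, was the 1 sgRNA of 252 (0.397%) that rose. It had 5224 of the 562263 reads of the baseline. In mice 1 to 4 it had 6455 of 657072, 5500 of 555026, 4676 of 476289 and 5805 of 585765 reads. Its changes were 0.12, 0.11, 0.095 and 0.095, mean 0.11 ± 0.012 (edgeR adjusted p = 0.0180). It was called in 6 of 15 alternatives, and not under any other library scaling tried. In ITPK1-KO cells it stood at -0.0091 ± 0.0080. Over its sgRNAs the gene CASP6 had a mean of 0.051 in ITPK1-WT cells and was not called (edgeR 0.068, adjusted p = 0.128). The highest non-targeting sgRNA stood at 0.096 in ITPK1-WT cells.

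**Figure D3:**
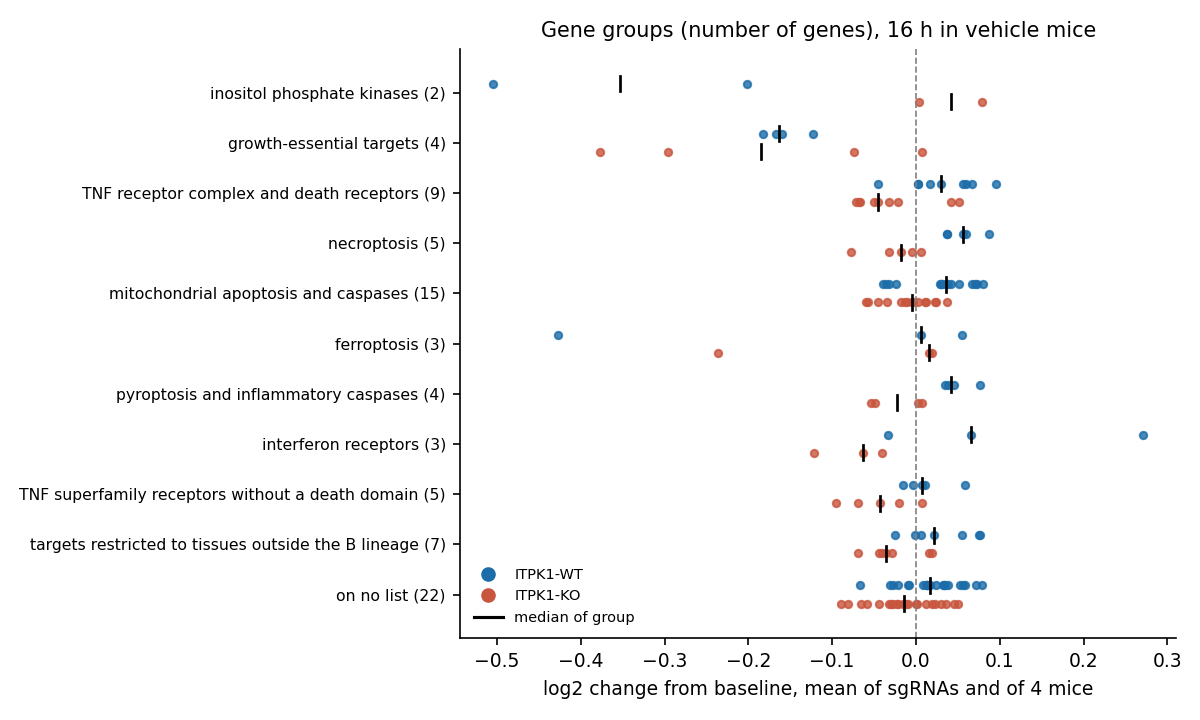
Mean change over 4 vehicle mice of each gene (log2), by gene group and background, with the number of genes in brackets and the group median as a black bar. In ITPK1-WT cells Ipmk at -0.50, Acsl4 at -0.43, Itpk1 at -0.20 and the 4 growth targets lie to the left, and the genes of the TNF receptor and death receptor, necroptosis, apoptosis and pyroptosis groups lie within 0.1 of 0, whereas Ifnar1 lies to the right at 0.27.

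The 4 pyroptosis genes, with medians of 0.042 and -0.023, and the 5 TNF superfamily receptors without a death domain, with medians of 0.0069 and -0.043, held no gene that passed. Gsdmd, the pore former of pyroptosis, was at 0.035 ± 0.021 in ITPK1-WT and 0.0030 ± 0.051 among ITPK1-KO cells. Among the 3 interferon receptor genes, Ifnar1, a chain of the type I receptor, had the highest mean of all genes in ITPK1-WT cells, 0.27 ± 0.064. That mean rested on Ifnar1 sg-3, which had 45 baseline reads and changed by 0.68 ± 0.21. On summed reads edgeR gave Ifnar1 0.074, adjusted p = 0.347. In ITPK1-KO cells Ifnar1 stood at -0.12 ± 0.15 (adjusted p = 0.725). Ifngr1, a chain of the interferon gamma receptor, stood at 0.065 ± 0.014 and -0.063 ± 0.047.

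The 7 targets restricted to tissues outside the B lineage had medians of 0.022 and -0.036 and no called gene. All 76 genes together had a median of 0.029 with ITPK1-WT, where 53 lay above 0. With ITPK1-KO the median was -0.022, and 25 lay above 0. Counts of genes wholly on 1 side of 0 depend on this offset, so their contrast between backgrounds is a description only. In ITPK1-WT cells 5 of 76 genes had every sgRNA above 0 in every mouse, and none had in ITPK1-KO cells. Among them were Cyld (0.095 ± 0.028), Ifnar1, Kcnip1, a potassium channel subunit of neurons (0.075 ± 0.013), and Olfr1404, an olfactory receptor (0.079 ± 0.025). None of the 5 passed the test, and those named had an edgeR adjusted p of 0.307 to 0.347. Below 0 throughout were Acsl4, Daxx and Ipmk in ITPK1-WT and Acsl4 and Daxx in ITPK1-KO cells.

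No gene's change differed between the backgrounds in the test of all 10 libraries (0.0% of 76, and 9 at an unadjusted p under 0.05, edgeR). With the mouse as a block 2 did, Itpk1 and Cyld. The 2 baselines, which share no animal, formed a further block in that fit. Cyld removes ubiquitin chains from the TNF receptor complex and acts on Ripk1. It stood at 0.096, 0.11, 0.12 and 0.055 in ITPK1-WT and at -0.059, -0.055, -0.046 and -0.12 in ITPK1-KO cells of mice 1 to 4. The within-mouse difference was -0.17 ± 0.010 (edgeR -0.17, adjusted p = 0.137, and 0.0492 with the block). Over all 76 genes the median difference in edgeR was -0.045. Pgam5 and Bax, among others, also stood lower in ITPK1-KO cells in each mouse. Commd4, a subunit of an endosomal sorting complex, stood at 0.059 ± 0.052 and -0.090 ± 0.065, and its difference was -0.15, adjusted p = 0.137. Library scaling also mattered for Itpk1. With TMM, DESeq2 size factors or total counts in place of the non-targeting median, Itpk1 was called in ITPK1-WT cells (adjusted p of 0.0315 to 0.0433) and in the difference (0.00473 to 0.00753). Tnfaip8l1, of a family of lipid transfer proteins, was also called there, at -0.066 ± 0.0080 in ITPK1-WT and 0.036 ± 0.033 among ITPK1-KO cells.

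The fit with the inferred sheet as a covariate used all 18 libraries and estimated it from IgA mouse 5 against IgA mice 6 to 8. In it Acsl4 in ITPK1-WT cells kept its call (edgeR -0.38, adjusted p = 0.00801, the highest over 16 alternatives). Without a call there, Ipmk stood at -0.25 and Daxx at -0.13 in ITPK1-WT cells, and Acsl4 at -0.20 and Daxx at -0.27 in ITPK1-KO cells, and no sgRNA passed. With all 18 libraries and no sheet term, the ITPK1-WT calls on Daxx and Ipmk were also lost. The ITPK1-KO calls on Acsl4 and Daxx were kept in that setting.

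**Figure D4:**
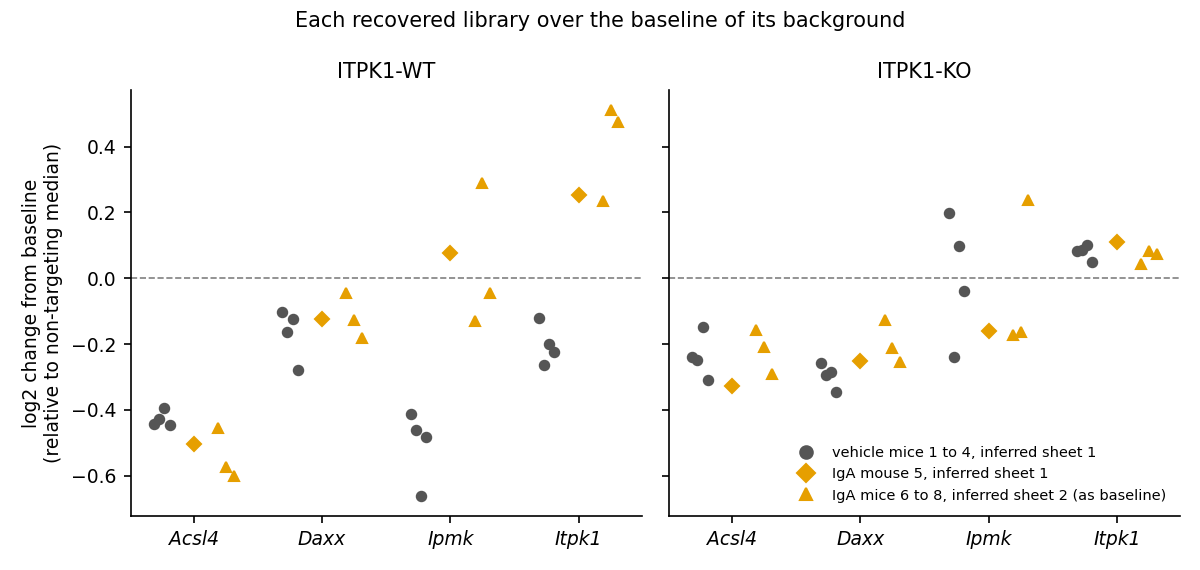
Change from baseline (log2) of Acsl4, Daxx, Ipmk and Itpk1 in each library, by arm and inferred sequencing sample sheet. Acsl4 and Daxx lie below 0 in IgA mice on the inferred sheet of the baselines and in the vehicle mice, and Ipmk and Itpk1 in ITPK1-WT cells lie lower in the vehicle mice than in the IgA mice.

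IgA libraries of mice 6 to 8, on the inferred sheet of the baselines, are given side by side only, since all share those baselines. Acsl4 stood at -0.54 ± 0.077 (SD, n = 3 mice) in ITPK1-WT and -0.22 ± 0.067 among ITPK1-KO cells, and Daxx at -0.12 ± 0.069 and -0.20 ± 0.064. Ipmk stood at 0.038 ± 0.22 and Itpk1 at 0.41 ± 0.15 in ITPK1-WT cells, against -0.50 and -0.20 in the vehicle mice. IgA mouse 5, on the inferred sheet of the vehicle libraries, had -0.50 and -0.33 for Acsl4 and -0.13 and -0.25 for Daxx in ITPK1-WT and ITPK1-KO cells. In its ITPK1-WT cells Ipmk stood at 0.075 and Itpk1 at 0.25.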

How the data were processed

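The authors deposited raw read counts per sgRNA for 18 libraries, after aligning MiSeq reads to the library reference and removing reads with mismatches, and scored them with MAGeCK 0.5.6, per the series' design text. The deposited table also gave the cells sorted per library and the sgRNA sequences, which are neither counts nor ratios. Aligner and genome build are not given in the sources used here, so no coordinates are printed. The arm of each mouse came from the deposited legend. A further 4 per-sample columns were not used. The sequencing sheet of each library was inferred from the sample numbers in the names of its read files and is not named in the labels.

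Here, changes were log2 ratios with 0.5 reads added, less the non-targeting median. A gene's change is the mean over its sgRNAs with at least 10 baseline reads, and its test was edgeR 4.0.16 (R 4.3.3) on summed reads, so the 2 scales can differ. Quasi-likelihood tests used 10 libraries in 4 groups (6 residual degrees of freedom), a mean of at least 10 reads for genes and sgRNAs, effective library sizes set by the non-targeting median, and Benjamini-Hochberg adjustment over 252 sgRNAs or 76 genes at 0.05. Scripts were tested on simulated data. Reads carry no molecular identifiers, so counting errors and limits (3 counts) cover counting only. The p-values rest on spread between mice sharing 1 pool, and that spread was shared across all sgRNAs or genes in the fit. Prior degrees of freedom, the weight given to the shared spread, were 1145 for sgRNAs and infinite for genes, beside 6 residual ones. The spread over mice of a single gene or sgRNA thus hardly entered its p-value.

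Libraries of 1 mouse share that animal, so the mouse number pairs them. The deviations of paired libraries correlated at 0.044, 0.0077, 0.10 and 0.019 over 237 sgRNAs. Named were the genes and sgRNAs past the threshold, the 5 highest and 5 lowest gene means with sgRNAs of 1 sign, and a set list. Some genes are not reported here. Kcnip1, Alox12 and Pgam5, and the ITPK1-WT values of Fas and Alox15, fall outside this rule and were chosen after their values were seen. Members and lists were chosen with earlier results of these data known. Alternatives were other library scalings and references, read filters, DESeq2 1.42.0, limma 3.58.1 on sgRNA means, robust dispersion and thinning. Others were all 18 libraries with and without the sheet as a covariate, the mouse block and each mouse left out.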

Additional observations from a re-analysis of the deposited data

Results flagged for a closer look

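Cyld in ITPK1-KO mouse 4 lay at -0.12 (log2), apart from the other 3 mice at -0.059 to -0.046. APAF1, which assembles the apoptosome, lay at 0.014 in ITPK1-KO mouse 3, apart from -0.011 to -0.0091 in the other 3 mice. Among 70 groups of 4 mice examined, 2 held such a library, and chance gives about 1 in 20. The change of Itpk1 sg-1 differed between the backgrounds by 0.40 in the test of the difference (ITPK1-KO minus ITPK1-WT, edgeR adjusted p = 0.0450).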

How the results depend on the processing

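Over 1765 comparisons of a gene or sgRNA value with an alternative, no called value reversed, 63 uncalled values changed sign, 69 calls were lost and 11 gained. Acsl4 in ITPK1-WT cells was called under all 16 alternatives. Called sgRNAs in ITPK1-WT cells numbered 7, and 2 with DESeq2's Wald test, 2 with all 18 libraries, 0 with the inferred sheet as a covariate, 4 after thinning to the smallest total and 2 to 7 with each mouse left out (2 without mouse 4). In ITPK1-KO cells they numbered 3, and 1, 1, 0 and 0 under those 4 settings and 1 to 4 with each mouse left out (1 without mouse 4). For the difference there was 1, and 0 under the same 4 settings and without any of the mice. Called genes in ITPK1-WT cells numbered 3, and 5 with DESeq2 size factors, 5 with TMM, 5 with total counts, 1 with all 18 libraries, 1 with the sheet, 1 with limma on sgRNA means and 1 to 3 with each mouse left out (1 without mouse 4). In ITPK1-KO cells they numbered 2, and 0 with the sheet and 1 after thinning, where Acsl4 had an adjusted p of 0.139. For the difference there were 0, and 2 with size factors, 2 with TMM, 2 with total counts and 2 with the replicate block by mouse, which gave 1 sgRNA and changed no other call on the difference. The SD of changes over sgRNAs in ITPK1-WT cells was 0.126, and 0.122 with 5 reads added. The cause of these differences was not tested. Depth limits Ipmk in ITPK1-KO cells, where sg-1, sg-2 and sg-3 had 200, 0 and 44 baseline reads.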

Other observations

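Of 14 genes whose baseline level in ITPK1-WT cells was under 50% of a non-targeting trio, 8 had a mean change below 0, beside 23 of all 76 genes. In ITPK1-KO cells 8 of 11 such genes did, beside 51 of 76. Baseline reads enter both the level and the change, so these counts are a description. Fadd was at 48.1% in both baselines and stood at 0.066 ± 0.033 and -0.050 ± 0.088 after recovery in ITPK1-WT and ITPK1-KO cells (SD, n = 4 mice). Across sgRNAs with at least 100 baseline reads, the change had a Pearson r with the sgRNA's GC content of -0.042 in ITPK1-WT (246 sgRNAs) and 0.10 in ITPK1-KO cells (244 sgRNAs). With the log2 reads of the same sgRNA in the baseline of the other background, which share no counting error with the change, Pearson r was 0.34 and Spearman rho 0.11 in ITPK1-WT cells, and 0.21 and 0.19 in ITPK1-KO cells (244 sgRNAs each). These are descriptions across sgRNAs that share libraries.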
